A study of Ictidomys tridecemlineatus with 5 samples.

Results

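Cadherins and protocadherins are cell-surface proteins whose messengers were followed here in eye and retina of a diurnal rodent, the ground squirrel Ictidomys tridecemlineatus. The members were the Swiss-Prot entry names whose description begins with Cadherin- or Protocadherin, joined over species, and 4 names of the tip links, photoreceptors and endothelium were left out by the rule. This gave 88 of the 15938 names found in the 2 tables, carried by 254 transcripts in the eye table and 260 in the retina table. The animals were wild type. Eye was sequenced in 2 libraries and retina in 3, each made from the pooled RNA of 4 animals, and the labels name the tissue only as eye or retina.

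Cadherins hold cells together through repeated extracellular domains that bind calcium and usually pair with the same cadherin on the neighbouring cell. Type I and type II cadherins pass that grip to actin through catenins, whereas the large FAT and Dachsous proteins act in tissue polarity and growth. The clustered protocadherins of the alpha, beta and gamma groups are chosen in different combinations by different neurons, which lets a neuron tell its own branches from those of other cells. In alpha and gamma transcripts a variable exon that encodes most of the protein is spliced to constant exons shared by the whole group.

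Each table gives 1 value per assembled transcript and tissue. A level is the RPKM, reads scaled to transcript length and library size, of a member's highest transcript. A difference is log2(eye RPKM + 1) minus log2(retina RPKM + 1), which understates the difference of low members. With 1 value per tissue no difference has a replicate check and no test could be run. Intervals are 95% Poisson intervals from the reads behind each value and cover counting error only. Their half-width on the difference scale had a median of 0.068 and was at most 0.21. RNA of a whole tissue cannot tell fewer cells of a type from less RNA per cell.

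Markers set the 2 tissues apart. All 3 corneal epithelial names were found in eye, where they summed to 3683 RPKM, against 1.59 RPKM in retina, with AL3A1 listed in eye alone. The lens names summed to 5222 RPKM in eye and 1.20 RPKM in retina, with LMIP listed in eye alone. Skeletal muscle names summed to 586 RPKM in eye and 2.38 RPKM in retina, fibroblast names to 455 RPKM in eye and 11.2 RPKM in retina, and pigment epithelial names to 355 RPKM in eye and 22.2 RPKM in retina. Photoreceptor names summed to 2150 RPKM in eye and 4397 RPKM in retina, and retinal neuron names to 568 RPKM in eye and 1244 RPKM in retina. Mueller glial names were at 1204 RPKM in eye and 1124 RPKM in retina. The endothelial name PLVAP had 50.9 RPKM in eye and 0.336 RPKM in retina. Every member difference given here moves between tissues that differ in all these markers except the glial ones, and the part of cell composition in any of them was not tested.

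Of the 88 members, 84 were in both tables and 79 of these reached 1 RPKM in at least 1 tissue. At a mark of 2-fold on the difference scale, 10 of the 79 were higher in eye and 13 lower, and 56 lay within it. The share higher in eye was 12.7%, near the 11.8% (1577) of all 13383 proteins compared, and the share lower was 16.5%, against 3.60% (482) of all proteins. With both tissues scaled to an equal total, 7 members were higher and 19 lower, and all proteins divided into 1176 higher and 1092 lower (8.73% and 8.10%). With the transcripts of a name summed, 23 of 82 members were lower in eye (28.0%), against 19.3% of all proteins, so the excess of lower calls was smaller there. Scaling to an equal total moves the median difference of all proteins to -0.30, whereas it was -0.0035 with the deposited scaling. The median member difference was -0.13, and the median member level was 3.65 RPKM in eye and 4.82 RPKM in retina, below the median of all proteins in both (9.41 RPKM in eye and 8.86 RPKM in retina).

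The calls were uneven between the kinds of cadherin. Among the non-clustered members 30 were compared, of which 2 were higher in eye (6.67%), 1 was lower (3.33%) and 27 lay within the mark. Their share of lower calls was thus near that of all proteins. Among the clustered protocadherins 49 were compared, of which 8 were higher in eye (16.3%) and 12 were lower (24.5%). Clustered members may share reads, as given below, so their counts may not be of separate measurements. The levels behind these calls differ in kind. Both levels came from transcripts of 1500 bases or more for 26 of the 30 non-clustered members but for 11 of the 49 clustered ones, and for 27 clustered members at least 1 level came from a transcript under 500 bases.

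**Figure D1:**
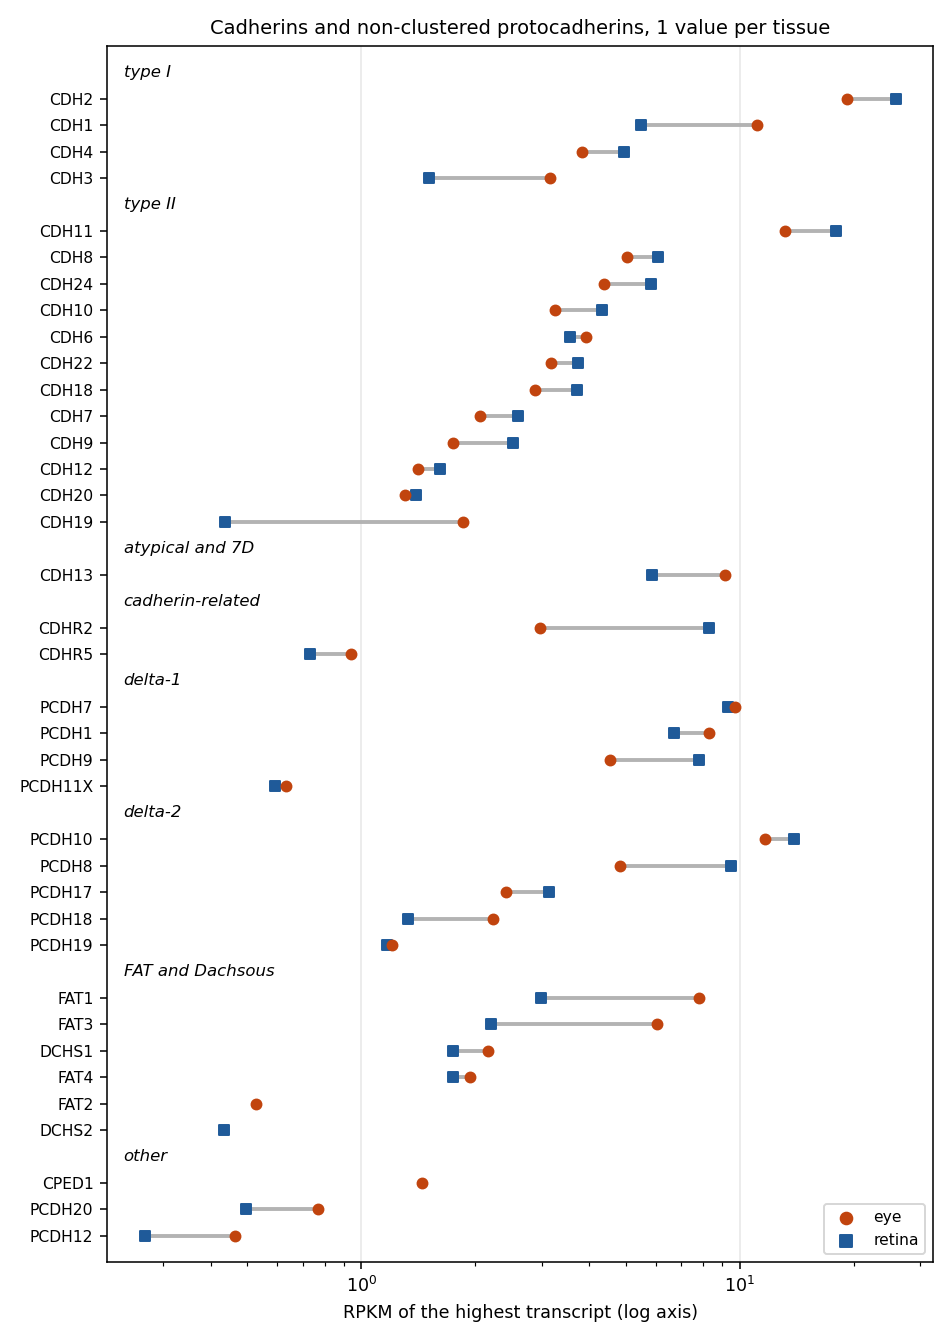
Level of each non-clustered member in eye (circles) and retina (squares), as the RPKM of its highest transcript on a log axis, 1 value per tissue, grouped by subfamily. CDH2 is the highest in both tissues, type II members sit mostly with the circle left of the square, and FAT1, FAT3, CDH1, CDH3 and CDH19 have the circle well to the right.

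Type I cadherins included the highest non-clustered member. CDH2, the N-cadherin of neurons, glia and lens, had 19.2 RPKM in eye and 25.8 RPKM in retina, a difference of -0.41 (95% counting interval -0.43 to -0.38). CDH4, called R-cadherin after the retina in which it was found, had 3.84 RPKM in eye and 4.94 RPKM in retina, on nearly full transcripts of 6165 and 6224 bases. Both neural type I cadherins were therefore lower in eye, within the 2-fold mark at these levels. The value of CDH2 depends on the transcript read. Retina held 3 CDH2 transcripts, with 25.8 RPKM at 2698 bases, 25.5 RPKM at 3913 bases and 17.8 RPKM at 5585 bases, and the best-matching transcripts gave a difference of 0.11. With the transcripts summed the CDH2 difference was -1.79, past the mark.

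The epithelial type I cadherins lay the other way. CDH1, the E-cadherin of epithelial junctions, had 11.1 RPKM in eye and 5.49 RPKM in retina, a ratio of 2.02 (1.93 to 2.12). CDH3, the P-cadherin of basal epithelia and pigment epithelium, had 3.15 RPKM in eye and 1.51 RPKM in retina, a ratio of 2.08 (1.97 to 2.20). On the log2(RPKM + 1) scale these were 0.90 and 0.72, so neither passed the mark. For CDH1 the retina value sat on a transcript of 1154 bases with 114 aligned residues, and the transcripts with the longest alignments had 11.1 RPKM in eye and 4.96 RPKM in retina, a difference of 1.02. The highest CDH1 transcript in retina held 2256 reads. The corneal names K1C12 and K2C5 stood at 1.29 and 0.299 RPKM in retina, and the part of corneal RNA in the CDH1 level was not tested. CDH1 and CDH3 are neighbours in the gene order of the RefSeq annotation (mIctTri1.hap1), from which no coordinates were taken.

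Type II cadherins, which sort neurons into circuits in the mouse retina and brain, were lower in eye in 10 of 12 members. Of all proteins 50.3% were lower in eye. The type II median difference was -0.23 and none of the 12 passed the 2-fold mark at the level of the highest transcript. CDH11, found in mesenchyme and neurons, led them with 13.2 RPKM in eye and 17.9 RPKM in retina, a difference of -0.41 (-0.44 to -0.39). CDH8, which together with CDH9 directs the arbors of bipolar cells to their layers in mice, had 5.02 RPKM in eye and 6.06 RPKM in retina. CDH9 had 1.74 RPKM in eye and 2.51 RPKM in retina. These are small differences in 1 direction, with counting intervals that do not reach 0 for any of CDH8, CDH9 and CDH11.

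The other type II members that were lower in eye, whose products are neural adhesion molecules, covered a narrow range. CDH24 had 4.38 RPKM in eye and 5.84 RPKM in retina, CDH10 had 3.24 RPKM in eye and 4.32 RPKM in retina, and CDH18 had 2.87 RPKM in eye and 3.72 RPKM in retina. CDH22 had 3.18 RPKM in eye and 3.73 RPKM in retina, and CDH7 had 2.06 RPKM in eye and 2.59 RPKM in retina. The least abundant were CDH12, with 1.41 RPKM in eye and 1.61 RPKM in retina, and CDH20, with 1.30 RPKM in eye and 1.39 RPKM in retina. With the longest alignments the median over all 12 was -0.11, with 9 lower in eye and CDH19 higher by the mark (1.00). In 8 of the 12 members the longest alignments in the tissues agreed in length within 10%, and over those 8 the median was -0.26 with 7 lower in eye. CDH22 and CDH24, which are not among those 8, moved to about 0 (-0.00 and 0.03) with their longest alignments. These covered 766 residues in eye and 636 in retina for CDH22, and 777 and 475 for CDH24. Both members passed the mark with summed transcripts (-1.72 and -1.23).

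CDH6 and CDH19 were the type II members above 0. CDH6, a cadherin of kidney and of some retinal neurons in mice, had 3.93 RPKM in eye and 3.56 RPKM in retina, and its difference of 0.11 became -0.15 with equal totals. CDH19, a cadherin of neural crest derivatives such as Schwann cells, had 1.86 RPKM in eye and 0.437 RPKM in retina, a ratio of 4.25 (3.29 to 5.51). This was the highest ratio of the type II members, although retina held only 60 reads on a fragment of 386 bases, and on the scale with a pseudocount of 1 the difference was 0.99. CDH19 and CDH7 are neighbours in the RefSeq gene order and lay on opposite sides of 0, whereas the neighbours CDH8 and CDH11, and CDH18 and CDH12, were lower in eye together.

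CDH13 lacks the cytoplasmic tail of other cadherins, is anchored in the membrane by a lipid and binds adiponectin. It had 9.15 RPKM in eye and 5.87 RPKM in retina, on transcripts of 3867 and 3822 bases with 694 aligned residues in each, a difference of 0.56 (0.53 to 0.60). CDHR2 bridges neighbouring microvilli in the gut and kidney together with CDHR5. It had 2.97 RPKM in eye and 8.29 RPKM in retina, a difference of -1.23 and the lowest of the non-clustered members. The retina value was that of a 667-base transcript. On transcripts that both align over 1270 residues CDHR2 had 2.97 RPKM in eye and 5.90 RPKM in retina, a difference of -0.80. CDHR5 stayed below 1 RPKM, with 0.939 RPKM in eye and 0.733 RPKM in retina.

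**Figure D2:**
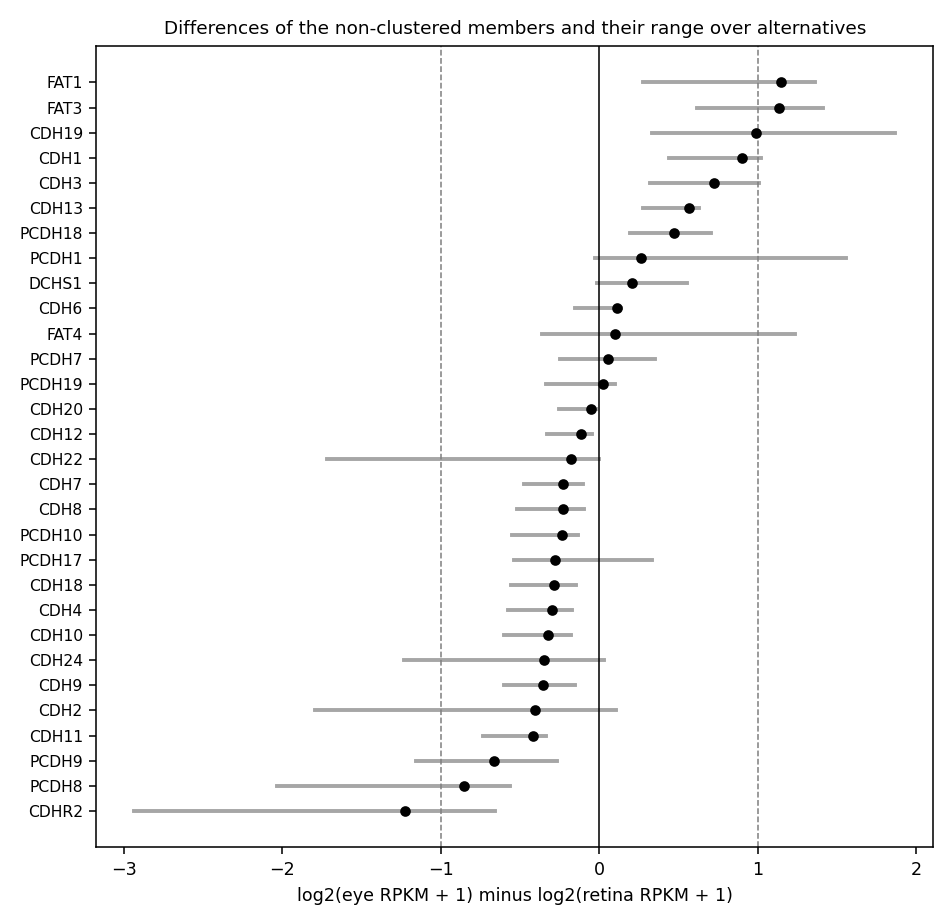
Difference of each of the 30 non-clustered members, log2(eye RPKM + 1) minus log2(retina RPKM + 1), with dots for the values as reported and bars from the lowest to the highest value over the alternative settings. Dashed lines mark 2-fold, and 21 of the 30 members keep the sign of their difference in every setting that was run.

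The delta protocadherins, which signal through conserved cytoplasmic motifs in developing and mature neurons, lay within the 2-fold mark in all 8 members compared. In the delta-1 group PCDH7, which supports retinal axon growth in the frog, had 9.69 RPKM in eye and 9.30 RPKM in retina. PCDH1, also known from airway epithelium, had 8.29 RPKM in eye and 6.72 RPKM in retina, a difference of 0.27 that became -0.03 with equal totals and 1.56 with summed transcripts. PCDH9 had 4.54 RPKM in eye and 7.80 RPKM in retina, a difference of -0.67 (-0.72 to -0.62). The retina transcript of PCDH9 matched only weakly (E-value 8.31e-08), and the PCDH9 difference was -0.27 with the longest alignments but -1.16 with summed transcripts. PCDH11X was under 1 RPKM, with 0.632 RPKM in eye and 0.591 RPKM in retina.

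In the delta-2 group the median difference was -0.24. PCDH10, which binds the WAVE complex, led with 11.7 RPKM in eye and 13.9 RPKM in retina. PCDH8, whose rat form arcadlin is induced by activity at synapses, had 4.82 RPKM in eye and 9.51 RPKM in retina, a difference of -0.85 (-0.90 to -0.81). Over the same 1070 aligned residues PCDH8 had 4.82 RPKM in eye and 7.70 RPKM in retina, a difference of -0.58, so its direction did not rest on the short transcript. PCDH8 passed the mark with equal totals (-1.16) and with summed transcripts (-2.03).

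PCDH17, a synaptic protocadherin of basal ganglia circuits in mice, had 2.41 RPKM in eye and 3.14 RPKM in retina, and its difference of -0.28 was 0.33 with summed transcripts. PCDH18 had 2.23 RPKM in eye and 1.32 RPKM in retina, a difference of 0.47 (0.42 to 0.52) on transcripts with 1135 aligned residues in both. PCDH18 was therefore the delta-2 member that stood higher in eye under both scalings. PCDH19, whose human gene is mutated in an epilepsy limited largely to females, had 1.21 RPKM in eye and 1.17 RPKM in retina. PCDH12 and PCDH20 were below the filter, PCDH12 with 0.464 RPKM in eye and 0.268 RPKM in retina and PCDH20 with 0.768 RPKM in eye and 0.495 RPKM in retina.

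The FAT and Dachsous group held both non-clustered members that were higher in eye by the mark. FAT3, which keeps amacrine cells from growing a second set of neurites in mice, had 6.03 RPKM in eye and 2.20 RPKM in retina, a ratio of 2.74 (2.68 to 2.79). Its transcripts were 18109 and 17458 bases long and both aligned over 4612 residues, so the call compares equal stretches of the protein. The difference of 1.13 fell short of the mark with summed transcripts (0.96), equal totals (0.90) and a pseudocount of 5 (0.61). FAT1, a giant cadherin of epithelia whose loss can disturb closure of the optic fissure, had 7.81 RPKM in eye and 2.98 RPKM in retina, a difference of 1.15. Eye held a FAT1 transcript of 6732 bases at 7.81 RPKM with 13884 reads and another of 13412 bases at 3.81 RPKM with 13513 reads. With the longest alignments the FAT1 difference was 0.28.

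DCHS1 and FAT4 form a ligand and receptor pair for planar cell polarity. DCHS1 had 2.16 RPKM in eye and 1.75 RPKM in retina, and FAT4 had 1.94 RPKM in eye and 1.75 RPKM in retina. The pair thus had nearly equal levels, and both differences passed below 0 with equal totals (-0.02 and -0.12), whereas FAT4 was past the mark with summed transcripts (1.24). FAT2 was listed in eye alone at 0.526 RPKM and DCHS2 in retina alone at 0.435 RPKM. CPED1, which enters only through its description as a cadherin-like protein with an esterase domain, was listed in eye alone at 1.44 RPKM on a transcript of 4917 bases. Among the non-clustered members, nearest to the mark without reaching it stood CDH19 (0.99), CDH1 (0.90) and PCDH8 (-0.85). Nearest beyond it were FAT3 (1.13) and FAT1 (1.15).

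**Figure D3:**
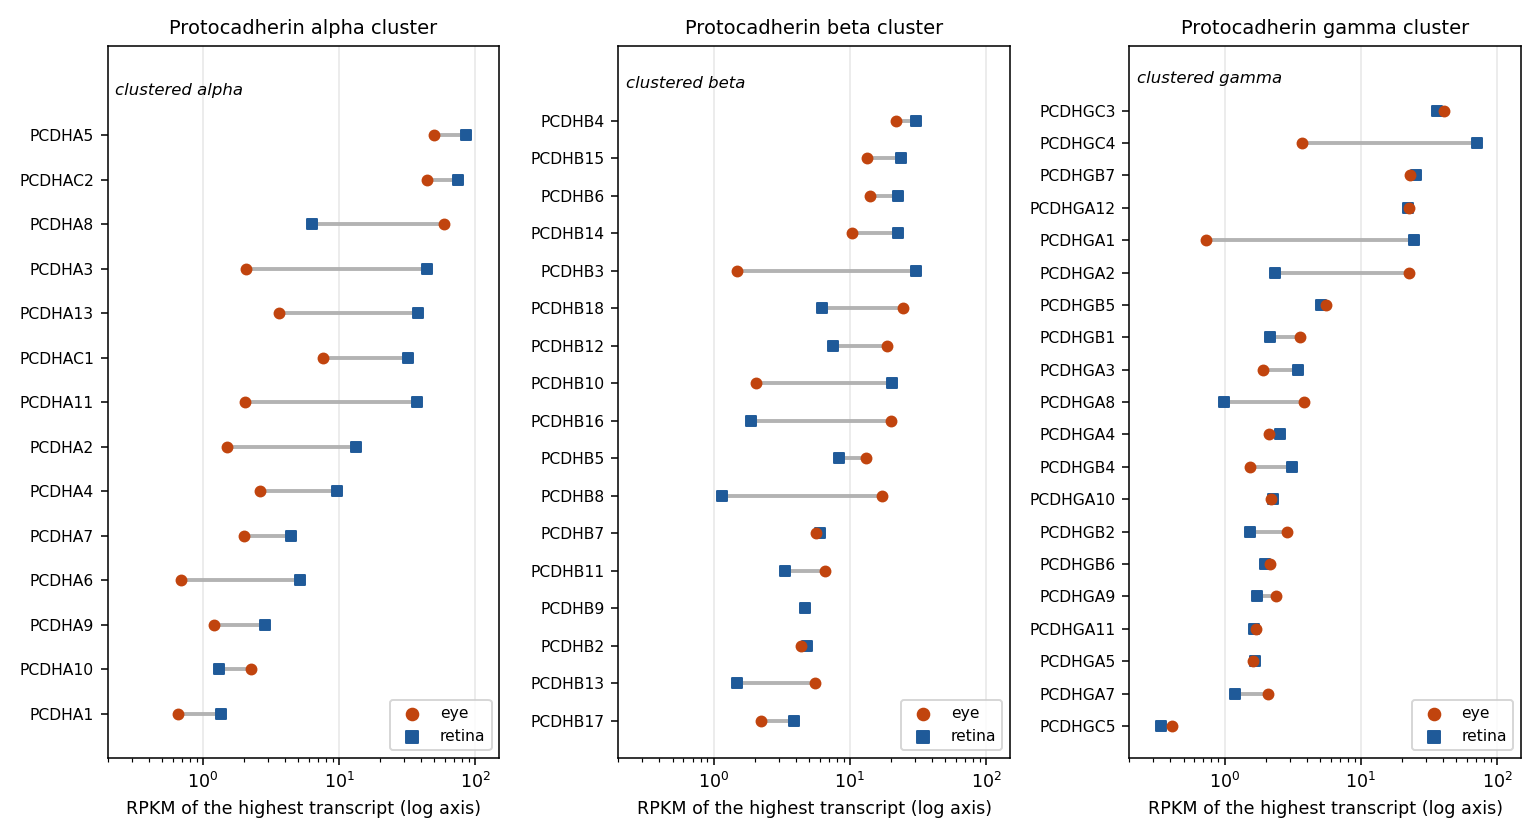
Level of each clustered protocadherin in eye (circles) and retina (squares), as the RPKM of its highest transcript on a log axis, 1 value per tissue, in 3 panels for the alpha, beta and gamma clusters. In the alpha panel 12 of 14 members have the circle left of the square, and beta and gamma members lie to both sides.

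The clustered protocadherins reached higher levels than any other member. The 8 with the highest mean level were PCDHA5, PCDHAC2, PCDHGC3, PCDHGC4, PCDHA8, PCDHB4, PCDHGB7 and PCDHA3. Other clustered members named here were chosen after their values were seen. These genes are near copies of each other, reads may be split or shared between them, and 3 of their 51 human-style symbols were found in the RefSeq table, so single names are uncertain.

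The alpha cluster was lower in eye in 12 of 14 members, against 50.3% of all proteins. Its median difference was -1.20 (-1.49 with equal totals and -0.86 with the longest alignments). By the mark 7 were lower (50%, against 3.60% of all proteins) and 1 was higher (7.14%, against 11.8%). PCDHA3, PCDHA11, PCDHA13 and PCDHAC1 are among the 7, and their retina transcripts held similar reads, given below. These counts may thus not be of separate measurements. PCDHA5 had 49.7 RPKM in eye and 84.8 RPKM in retina, a difference of -0.76 (-0.78 to -0.74). Only 152 residues of each PCDHA5 transcript aligned to the hit, although the transcripts were 2883 and 2963 bases long. With the longest alignments, of 543 residues in eye and 728 in retina, PCDHA5 had 1.72 RPKM in eye and 3.21 RPKM in retina. That difference was -0.63, so the high PCDHA5 levels rest on the transcripts with the shorter alignments. PCDHAC2, a C-type isoform that mouse neurons express outside the random choice of isoforms, had 43.9 RPKM in eye and 74.0 RPKM in retina, a difference of -0.74 (-0.75 to -0.73), with 1007 aligned residues in each tissue. PCDHAC2 lay within the mark at these levels and past it with equal totals (-1.07) and summed transcripts (-1.76). PCDHA5 also passed it with equal totals (-1.09). PCDHAC1, the other C-type alpha isoform, had 7.59 RPKM in eye and 31.9 RPKM in retina, a difference of -1.94 (-1.97 to -1.90) on transcripts of 3296 and 3751 bases.

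The remaining alpha differences came mostly from fragments in 1 tissue. PCDHA3 had 2.07 RPKM on 530 bases in eye and 44.1 RPKM on 2498 bases in retina. PCDHA13 had 3.65 RPKM on 355 bases in eye and 37.6 RPKM on 3005 bases in retina. PCDHA11, with longer transcripts in both, had 2.04 RPKM on 2237 bases in eye and 37.1 RPKM on 3015 bases in retina. In these members an abundant transcript of 2498 bases or more appeared in the retina table and transcripts of a few RPKM in the eye table. The retina transcripts of PCDHA3, PCDHA13 and PCDHA11 held nearly equal reads (39194, 40260 and 39800), and that of PCDHAC1 held 42566. Their levels may thus not be separate measurements. PCDHA8 ran the other way, with 58.5 RPKM in eye on a 328-base fragment and 6.33 RPKM in retina. With the longest alignments PCDHA8 had 1.67 RPKM in eye and 1.66 RPKM in retina. The last alpha members lower in eye by the mark were PCDHA2, with 1.50 RPKM in eye and 13.2 RPKM in retina, PCDHA4, with 2.65 RPKM in eye and 9.62 RPKM in retina, and PCDHA6, with 0.694 RPKM in eye and 5.17 RPKM in retina. All 3 were read from fragments under 1000 bases, and PCDHA2 changed sign with the longest alignments (0.33).

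The beta cluster had no transcript of 2000 bases or more in either table, so its levels all rest on pieces of genes. Of 16 members compared, 5 were higher in eye by the mark (31.25%, against 11.8% of all proteins) and 3 lower (18.75%, against 3.60%). The median was -0.11. PCDHB4 had 21.7 RPKM in eye and 30.5 RPKM in retina, on 258 and 387 bases. PCDHB18 had 24.7 RPKM in eye and 6.24 RPKM in retina, on similar lengths of 372 and 392 bases, a difference of 1.83. PCDHB7, with the longest beta alignments (593 residues in eye and 597 in retina), had 5.65 RPKM in eye and 6.07 RPKM in retina. Among the members lower in eye by the mark, PCDHB3 had 1.48 RPKM in eye and 30.7 RPKM in retina, PCDHB10 had 2.06 RPKM in eye and 20.4 RPKM in retina, and PCDHB14 had 10.4 RPKM in eye and 22.4 RPKM in retina. The retina level of PCDHB10 sat on a 165-base fragment, and over 488 and 489 aligned residues PCDHB10 had 2.06 RPKM in eye and 2.51 RPKM in retina, a difference of -0.20 in place of -2.81. PCDHB14 had a difference of -0.17 with the longest alignments, so both calls were lost there. PCDHB3 stood at -4.35 there, but on unlike stretches, 70 aligned residues with 31 reads in eye and 182 with 5982 reads in retina. Among those higher, PCDHB12 had 18.7 RPKM in eye and 7.54 RPKM in retina and PCDHB13 had 5.50 RPKM in eye and 1.49 RPKM in retina, and with the longest alignments PCDHB12 fell short of the mark (0.67) and PCDHB13 changed sign (-0.61). PCDHB9 was listed in retina alone, at 4.70 RPKM. PCDHB8 and PCDHB16 showed the highest eye levels relative to retina among beta members, 17.0 RPKM in eye against 1.16 RPKM in retina and 19.8 RPKM in eye against 1.88 RPKM in retina. Both turned to slightly lower in eye (-0.38 and -0.34) once transcripts under 500 bases were left out.

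The gamma cluster had 2 of 19 members higher in eye (10.5%, near the 11.8% of all proteins) and 2 lower (10.5%, against 3.60% of all proteins), with a median difference of 0.03 that became -0.19 with equal totals. PCDHGC3, a C-type gamma isoform, had 41.1 RPKM in eye and 36.4 RPKM in retina, a difference of 0.17 (0.16 to 0.19) over 919 aligned residues in each. PCDHGB7 had 22.9 RPKM in eye and 25.2 RPKM in retina, and PCDHGA12 had 22.5 RPKM in eye and 22.1 RPKM in retina. In PCDHGC3, PCDHGB7 and PCDHGA12, which held a transcript of 3000 bases or more in both tissues, the levels were thus within a few RPKM of each other. PCDHGA2 had 22.5 RPKM in eye on 3919 bases and 2.34 RPKM in retina on 2538 bases. PCDHGA8, the other member higher in eye by the mark, had 3.82 RPKM on a 197-base fragment in eye and 0.988 RPKM in retina. With the longest alignments PCDHGA8 had 0.973 RPKM in eye and 0.988 RPKM in retina, both under 1 RPKM, so the call was lost there. PCDHGA1 had 0.733 RPKM in eye on 315 bases and 24.6 RPKM in retina on 3566 bases. The eye transcripts of PCDHGA12, PCDHGA2 and PCDHGB7 held nearly equal reads (23319, 23258 and 23759). So did the retina transcripts of PCDHGA12, PCDHGA1 and PCDHGB7 (30950, 31212 and 31310). The levels of these members may thus not be separate measurements. PCDHGC4, whose loss kills neurons in mice, had 3.71 RPKM in eye and 71.7 RPKM in retina, but the retina transcript aligned over 112 residues only. With the longest alignments PCDHGC4 had 3.71 RPKM in eye and 24.2 RPKM in retina, a difference of -2.42.

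**Figure D4:**
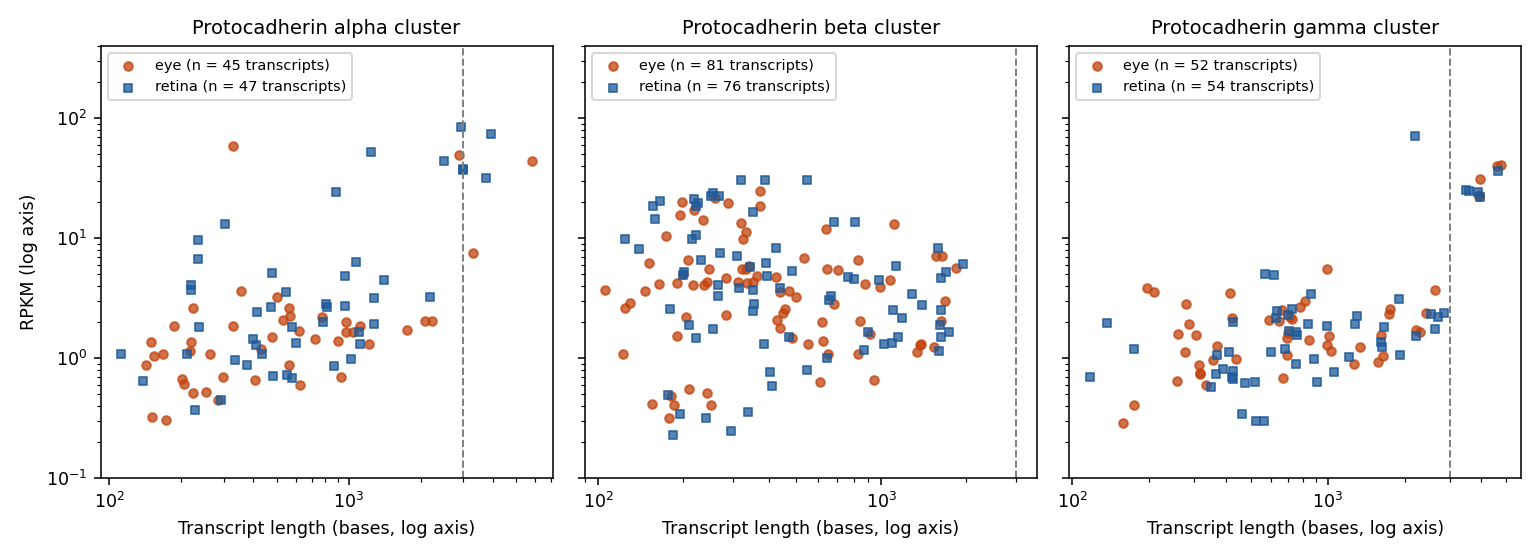
Level against length of every clustered protocadherin transcript, both on log axes, for eye (circles) and retina (squares) in 3 panels, with a dashed line at 3000 bases. Alpha and gamma transcripts past the line are at 7.59 RPKM or more, most shorter ones are under 5 RPKM, and no beta transcript reaches the line.

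Level and length went together in the alpha and gamma clusters. The 8 eye transcripts of 3000 bases or more ranged over 7.59 to 43.9 RPKM (median 27.2), and the 9 retina transcripts over 22.1 to 74.0 RPKM (median 31.9). Of the shorter transcripts, 86 of 89 in eye and 81 of 92 in retina were under 5 RPKM, with medians of 1.50 RPKM in eye and 1.67 RPKM in retina. No long transcript was thus under 7.59 RPKM, whatever variable gene it was named for. Since a level is that of the highest transcript, a member with a long transcript in 1 table only will tend to be higher there, and the part of transcript length in the calls was not tested.

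**Figure D5:**
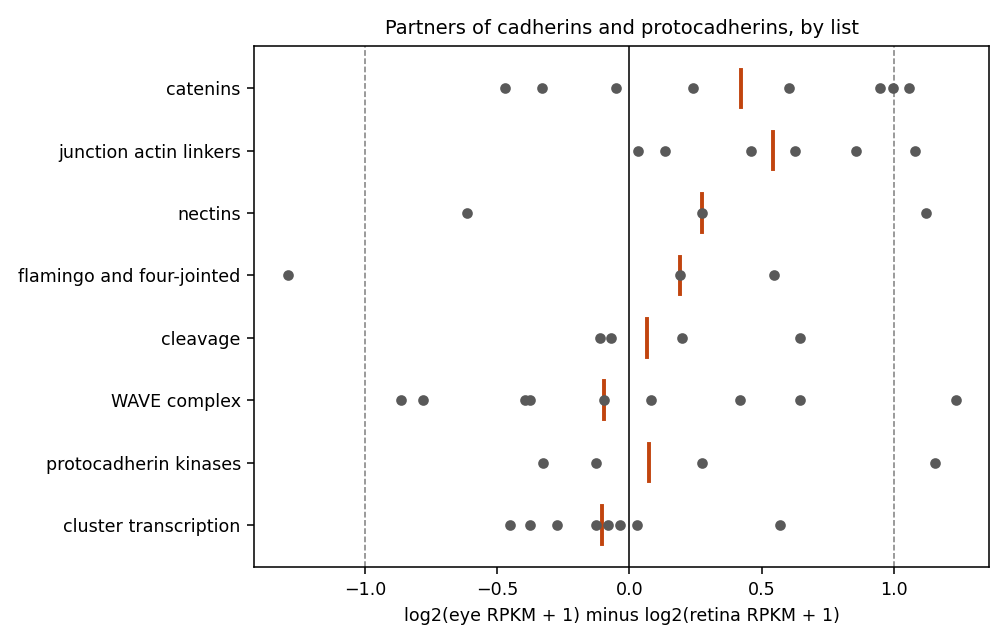
Differences of the proteins that cadherins and protocadherins act through, by list, as log2(eye RPKM + 1) minus log2(retina RPKM + 1), with a dot for each protein and a short bar for the list's median. Dashed lines mark 2-fold, and all 6 actin linkers and 5 of 8 catenins lie above 0, against 49.7% of all proteins.

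Catenins, which bind the tails of type I and type II cadherins, were higher in eye by the mark in 1 of 8 members, a share near the 11.8% of all proteins, with a median of 0.42 (0.11 with equal totals). CTNB1, beta-catenin, had 89.1 RPKM in eye and 92.5 RPKM in retina. CTNA1, the alpha-catenin of epithelia, had 47.5 RPKM in eye and 23.3 RPKM in retina, whereas CTNA2, its neural form, lay below 0 with a difference of -0.33. PLAK, the plakoglobin of desmosomes and adherens junctions, was the member past the mark, with 25.0 RPKM in eye and 11.5 RPKM in retina. CTND1, the p120 catenin, had 11.7 RPKM in eye and 7.37 RPKM in retina, and CTND2, its neural relative, had 12.7 RPKM in eye and 18.0 RPKM in retina. The neural catenins CTNA2 and CTND2 lay on the same side of 0 as CDH2 and CDH4. CTNA1, CTND1 and PLAK lay on the same side as CDH1 and CDH3. CTNB1 was at -0.05, and CDH2 turned to 0.11 with the best-matching transcripts. Of the remaining catenins, ARVC had 29.4 RPKM in eye and 14.8 RPKM in retina and PKP4 had 31.1 RPKM in eye and 26.2 RPKM in retina, and CTNA3 was listed in eye alone at 0.467 RPKM. CTNA2, CTND1, CTND2 and PLAK are named as examples after their values were seen, so their match with the cadherins is not a test.

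Linkers from junctions to actin were above 0 in 6 of 6 members, against 49.7% of all proteins, with 1 higher by the mark. The share to set beside this and the later lists is 11.8% of all proteins higher by the mark and 3.60% lower. The linker median was 0.54, but 0.23 with equal totals, 0.30 with hits of E-value 1e-20 or less and 0.28 with the longest alignments. TES, a focal adhesion protein, had 605 RPKM in eye and 285 RPKM in retina, and the alpha-actinin ACTN4 had 53.9 RPKM in eye and 34.5 RPKM in retina. Nectins, which seed adherens junctions, had 1 of 3 higher in eye, PVRL3, with 6.66 RPKM in eye and 2.52 RPKM in retina. PVRL1 had 20.5 RPKM in eye and 32.0 RPKM in retina, PVRL2 had 8.99 RPKM in eye and 7.26 RPKM in retina, and PVRL4 was listed in eye alone at 7.42 RPKM.

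The partners of FAT and protocadherin signalling were mixed. The seven-pass cadherin CELR3, which guides axons, was lower in eye, with 2.14 RPKM in eye and 6.70 RPKM in retina, whereas CELR2 had 7.33 RPKM in eye and 6.30 RPKM in retina. CELR1 was listed in eye alone at 6.90 RPKM. FJX1, the homolog of the fly kinase that tunes FAT and Dachsous binding, had 8.10 RPKM in eye and 5.23 RPKM in retina. In the WAVE complex, which delta protocadherins recruit to move actin, 1 of 9 passed the mark, WASF2, with 8.75 RPKM in eye and 3.14 RPKM in retina, and the median was -0.10. WASF3 had 15.7 RPKM in eye and 27.8 RPKM in retina, CYFP2 had 36.3 RPKM in eye and 47.4 RPKM in retina, NCKP1 had 42.4 RPKM in eye and 45.4 RPKM in retina and BRK1 had 59.6 RPKM in eye and 44.4 RPKM in retina.

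The proteases and most of the kinases lay within the mark. None of the 4 proteases and presenilins compared passed the mark (median 0.07, and -0.24 with equal totals), and NICA, nicastrin of the gamma-secretase, was listed in retina alone at 33.9 RPKM. Of 4 kinases that act with protocadherins, 1 was higher in eye, FAK2, with 2.24 RPKM in eye and 0.454 RPKM in retina, and the median was 0.08 (-0.22 with equal totals). WASF2 and FAK2 are named after their values were seen. None of 8 proteins that bind and fold the clustered genes passed the mark (median -0.11). CTCF, which binds their promoters, had 16.7 RPKM in eye and 20.5 RPKM in retina, and the cohesin subunit RAD21 had 37.7 RPKM in eye and 36.9 RPKM in retina.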

How the data were processed

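Eye and retina RNA was sequenced in 2 and 3 libraries. The submitters' processing notes name Bowtie without a version. The assembler and counting mode were not given in the sources used here. Per tissue, the deposited tables hold 1 expression value per assembled transcript, read as RPKM from the values, and its best Swiss-Prot hit. Per the file headers, each hit has a Similarity, which is a percent of aligned positions, and a bit score. RPKM times length was a whole multiple of 1 constant within 0.01 reads for 100% of transcripts, a scaling total of 264219334 reads in eye and 355988270 in retina. Recovered reads summed to 19.2 and 10.5 times these totals, so reads may count on several transcripts and intervals may be too narrow.

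Transcripts were grouped by entry name before the species code, and all transcripts of a member's name were kept whatever their own description says. Differences were computed for names that both tables list and that reach 1 RPKM in at least 1 of them, with a pseudocount of 1 and a mark of 2-fold, in Python 3.11.15 with pandas 2.3.3, numpy 2.4.6 and scipy 1.17.1. The functions were tested on simulated data. Members, lists and marks were chosen with earlier results of these data known. Named were every non-clustered member at 1 RPKM or more, the 8 clustered ones with the highest mean, members in 1 table only from 1 RPKM, and up to 4 names per partner list by mean level. Members below 1 RPKM were named after their values were seen. Gene symbols are human-style names for the hits, and 38 of 88 matched a RefSeq symbol (mIctTri1.hap1). Nectins were found under their older names, and KDR was not found. The 15 alternatives changed the level per protein, the length, hit and level filters, the pseudocount and the scaling, and 2 of them were added after seeing the data.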

Additional observations from a re-analysis of the deposited data

How the results depend on the processing

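Against 10 members higher in eye, the count was 5 of 77 with the best-matching transcript (6.49%, against 11.8% of all proteins). It was 6 of 78 with the length-weighted mean (7.69%, against 11.6%) and 5 of 77 with the longest alignment (6.49%, against 11.9%). It was 5 of 72 and 4 of 47 with transcripts of at least 500 and 1500 bases (6.94% and 8.51%, against 10.8% and 7.91%). At a filter of 10 RPKM it was 6 of 29 (20.7%, against 12.8%), and with a pseudocount of 5 it was 5 of 79 (6.33%, against 6.09%). Against 13 lower in eye, the count was 23 with summed transcripts (28.0%, against 19.3% of all proteins). It was 8 of 77 with the best-matching transcript and with the longest alignment (10.4% in each, against 3.17% and 3.03%). With transcripts of at least 500 and 1500 bases it was 8 of 72 and 4 of 47 (11.1% and 8.51%, against 3.38% and 2.75%). The longest-alignment and 1500-base settings were chosen after seeing the data. The median member difference of -0.13 was -0.22 with summed transcripts, -0.48 at 10 RPKM and -0.44 with equal totals. The sign turned with the best-matching transcript and the longest alignment for PCDHA2 (0.33, against -2.51 as reported), PCDHB13 (-0.61, against 1.38), PCDHB16 (-0.34, against 2.85) and PCDHB8 (-0.38, against 3.06). With transcripts of at least 500 bases it turned for PCDHA8 (-0.79, against 3.02), PCDHB16 (-0.34) and PCDHB8 (-0.38). These settings read other, mostly longer, transcripts of the same name. Of the 23 called members, 18 kept their sign and 9 their call in every alternative that gave a value, and the 9 were all clustered. Among the 9, PCDHA3, PCDHA11, PCDHA13 and PCDHGA1 had an abundant longer transcript in retina and only low, shorter ones in eye. No alternative supplies a transcript that a table lacks or separates shared reads. Keeping a call in all of them is thus no check on either. No paired analysis was possible because the tables hold 1 value per tissue, and leaving out a library was not possible for the same reason. Depth limits the members under 1 RPKM, some of which rest on under 100 reads.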

Other observations

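The calsyntenins, neuronal proteins with extracellular cadherin repeats whose descriptions lie outside the rule, were looked at after the values of the members were seen. CSTN1 had 204 RPKM in eye and 261 RPKM in retina, on transcripts of 4132 and 4129 bases, a difference of -0.36. CSTN3 had 26.5 RPKM in eye and 37.4 RPKM in retina, a difference of -0.49, and CSTN2 had 2.28 RPKM in eye and 3.11 RPKM in retina, a difference of -0.33. All 3 were lower in eye within the 2-fold mark. CSTN1 stood above every cadherin and protocadherin member in both tissues.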
